A study of Mus musculus with 60 samples.

Results

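Cytochrome P450 genes were followed in primary mouse hepatocytes lacking the HGF receptor Met (KO) and in Cre control hepatocytes (WT), before and during treatment with hepatocyte growth factor (HGF). Members were all genes whose platform symbol had the form Cyp, family number, subfamily letter and gene number, except Cyp2a4, Cyp2a5 and the 4 bile acid enzymes Cyp7a1, Cyp7b1, Cyp8b1 and Cyp27a1. The pattern matched 55 genes, and 49 remained, in 24 subfamilies, of 14442 genes named on the array. Where a gene had 2 probes, the one with most values was read. Of the 49 members, 36 in 19 subfamilies had values in at least 2 of 3 replicates of every group and were tested, and the other 13 are described by their levels alone. KO hepatocytes carried Alb-Cre +/-; Met Fl/Fl, in which Cre driven by the albumin promoter removes Met in hepatocytes, and came from male mice of mixed strain labelled 129SV/C57BL6. WT hepatocytes came from male Cre control mice labelled C57BL, so strain and genotype changed together and cannot be told apart. All mice were 9-10 weeks old. Cells were plated in serum, kept in serum-free medium, and given HGF at 50 ng/ml the next day for 0.5, 2, 12 or 24 h, or left untreated. This gave 10 groups of 3 cultures, each group from 3 individual mice. Whether the times share mice is not stated, and p-values then measure the spread between these cultures. No untreated cultures of later times were analysed here, and the effects of HGF and of longer culture cannot be told apart.

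Cytochrome P450 enzymes are haem proteins that use oxygen and electrons passed on by a reductase to oxidise lipids, hormones, drugs and toxins. Most hepatic forms sit in the endoplasmic reticulum of hepatocytes, many of them mainly in cells near the central vein, and their transcription is held up by liver factors such as HNF4, HNF1 and C/EBP and by nuclear receptors for foreign compounds and fatty acids. Isolated hepatocytes are known to lose much of this expression in culture. Families Cyp1 to Cyp3 act largely on foreign compounds, Cyp4 on fatty acids, and several higher-numbered families on sterols, steroids and vitamins.

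The promoters below belong to members whose transcripts were lower at 12 or 24 h in at least 1 genotype, and they are shown because they differ in the elements they hold. They run from 250 bases before to 50 bases after a RefSeq start site, on GRCm38.p6, 5′ to 3′ on the gene's strand. Of the members, 4 had more than 1 promoter listed, and the first was used. For Cyp2c29 the start site used lies downstream of the gene start at 39287044, so positions in it depend on that choice. Capitals mark 3 motifs searched on both strands. TATAAA is the core of the TATA box, CAAAGTCCA is an HNF4 element, and AGGTCA is a nuclear receptor half-site.
Cyp2e1, chr7:140763569-140763868, plus strand: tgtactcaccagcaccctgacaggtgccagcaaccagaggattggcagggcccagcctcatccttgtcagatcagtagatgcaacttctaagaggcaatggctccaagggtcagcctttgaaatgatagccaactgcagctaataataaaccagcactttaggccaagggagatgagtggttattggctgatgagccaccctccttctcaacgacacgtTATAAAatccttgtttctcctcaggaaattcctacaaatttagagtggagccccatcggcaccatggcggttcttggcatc
Cyp2f2, chr7:27119705-27120004, plus strand: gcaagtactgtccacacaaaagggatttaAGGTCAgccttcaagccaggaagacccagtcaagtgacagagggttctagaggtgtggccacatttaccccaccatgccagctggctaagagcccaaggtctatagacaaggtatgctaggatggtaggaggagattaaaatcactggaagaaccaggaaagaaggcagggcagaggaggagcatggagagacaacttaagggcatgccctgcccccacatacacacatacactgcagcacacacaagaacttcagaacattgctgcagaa
Cyp2c29, chr19:39286835-39287134, plus strand: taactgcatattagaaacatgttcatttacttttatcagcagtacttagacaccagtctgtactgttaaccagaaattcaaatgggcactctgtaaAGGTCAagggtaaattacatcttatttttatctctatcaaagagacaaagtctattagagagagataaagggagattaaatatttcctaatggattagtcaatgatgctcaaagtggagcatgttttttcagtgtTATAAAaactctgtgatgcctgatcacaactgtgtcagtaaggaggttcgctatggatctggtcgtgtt
Cyp2c39, chr19:39347096-39347395, plus strand: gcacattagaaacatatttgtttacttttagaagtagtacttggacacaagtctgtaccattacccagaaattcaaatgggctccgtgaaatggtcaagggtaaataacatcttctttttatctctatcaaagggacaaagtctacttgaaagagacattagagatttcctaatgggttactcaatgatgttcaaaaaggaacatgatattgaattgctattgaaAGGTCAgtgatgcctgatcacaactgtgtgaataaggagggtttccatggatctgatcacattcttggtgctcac
Cyp3a41a, chr5:145720087-145720386, minus strand: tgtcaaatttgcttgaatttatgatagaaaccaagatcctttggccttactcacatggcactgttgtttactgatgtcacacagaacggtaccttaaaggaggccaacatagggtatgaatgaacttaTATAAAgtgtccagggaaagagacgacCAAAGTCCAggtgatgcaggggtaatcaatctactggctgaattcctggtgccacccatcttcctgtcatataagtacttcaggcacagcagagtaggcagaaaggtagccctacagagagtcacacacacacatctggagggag

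Of the 49 members, 38 had a RefSeq promoter, and both strands were searched for 6 motifs. TATAAA occurred in 16 of 38 (42.1%), against 13.6% of all 32851 promoters of that length. CAAAGTCCA occurred in 3 of 38 (7.89%), against 0.475%, and these were Cyp2c40, Cyp3a16 and Cyp3a41a. AGGTCA occurred in 23.7% of member promoters and 16.3% of all, GCGTG (the Ah receptor core) in 21.1% and 32.4%, GTTAAT (an HNF1 half-site) in 5.26% and 7.1%, and TGANTCA (an AP-1 element) in 7.89% and 7.81%. In Cyp2e1 the TATA box lies at positions -31 to -26 from the start site, and in Cyp3a41a the HNF4 element lies at -95 to -87. TATAAA was counted at any position and on either strand, so not each one need be a TATA box. It lies at -122 to -117 in Cyp3a41a, at 30 to 35 in Cyp26a1, and on the minus strand in Cyp2d9. The printed promoters of Cyp2c29 and Cyp2c39, neighbours in the Cyp2c cluster, share 237 identical bases over 313 aligned columns (75.7%), against 45.3 to 49.1% for the other 9 pairs printed.

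RNA of each culture was hybridised together with a WT hepatocyte RNA pool on 2 two-colour arrays, once in each dye, which gave 60 arrays with 17356 to 21511 values each. The level given is the mean log2 ratio of both arrays. For arrays, the number of cultures limits the precision. Over all probes the 2 dyes of a culture often disagreed, with a negative correlation in 23 of 30 pairs. The ratio is read here as sample over pool on every array, which is likely but not stated. On that reading Cyp2e1 had the highest correlation between dyes of the tested members (r = 0.90 over 30 cultures). The median was 0.39 over tested members and -0.039 over all tested probes, so this 1 gene does not settle the direction. The Cy5 array of WT untreated replicate 3 correlated below -0.3 with 19 other Cy5 arrays, so its direction is unsettled. Array numbers fall into 4 sets, called A to D here. All 12 h cultures lie in set C, as do replicates 1 and 2 of the untreated and 24 h groups in both genotypes, whereas replicate 3 of those groups lies in set A (KO untreated) or B, as does the Cy3 array of WT 24 h replicate 2 (set B). The 0.5 and 2 h cultures lie in set D, except KO 2 h replicate 3 in set A, so array set and an early time cannot be told apart. The Met probe was not called between genotypes (0.075 ± 0.082, SE, KO minus WT over 5 times, adjusted p = 0.648). Whether it lies in the deleted part is not given, so it checks nothing. Albumin, the defining product of hepatocytes, changed by -0.083 and -0.061 log2 at 24 h in KO and WT cells. It is 1 of 11 hepatocyte markers measured, of which 5 were lower in KO and 4 in WT cells at 24 h. The shares of all probes called lower were 2.94 and 4.76%.

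After 24 h of HGF, Cyp2a12, Cyp2c29, Cyp2c39, Cyp2d11, Cyp2d26, Cyp2e1, Cyp2f2 and Cyp4b1 were lower than in untreated cells in both genotypes, and no member was called higher at 12 or 24 h. In KO cells 0 of 36 tested members passed an adjusted p under 0.05 at 12 h, where 0.13% of all 14580 probes did. At 24 h in KO cells 8 of 36 were called, all lower, where 3.48% of probes were called in either direction and 2.94% as lower. In WT cells 15 of 36 were lower at 12 h, where 5.81% of probes were called in either direction and 3.16% as lower. At 24 h in WT cells 17 of 36 were lower, where 8.72% were called in either direction and 4.76% as lower. Fitting only the groups compared, which rests on fewer cultures, kept 0 of the 8 KO and 3 of the 17 WT calls at 24 h. Weights by group spread kept 8 and 5, where 3.54 and 1.46% of probes were called. The members' median SD was 0.41 and 0.38 in the KO and WT 24 h groups and 0.17 and 0.31 untreated. In the other groups it was 0.12 to 0.18, and the main fit pools all 10. The members' median log2 difference from untreated was -0.53 at 12 h and -0.57 at 24 h in KO cells, and -0.71 and -0.74 in WT cells. Medians over all probes lay between -0.034 and 0.017. Without WT untreated replicate 3 the members' median in WT cells was -0.43 at 12 h and -0.68 at 24 h. Members' medians within array set C alone were -0.43 in KO and -0.43 in WT cells at 12 h, and -0.75 in KO and -0.73 in WT cells at 24 h. Both times of a genotype share its untreated cultures. In these bulk RNA samples fewer cells of a type and less RNA per cell cannot be told apart.

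**Figure D1:**
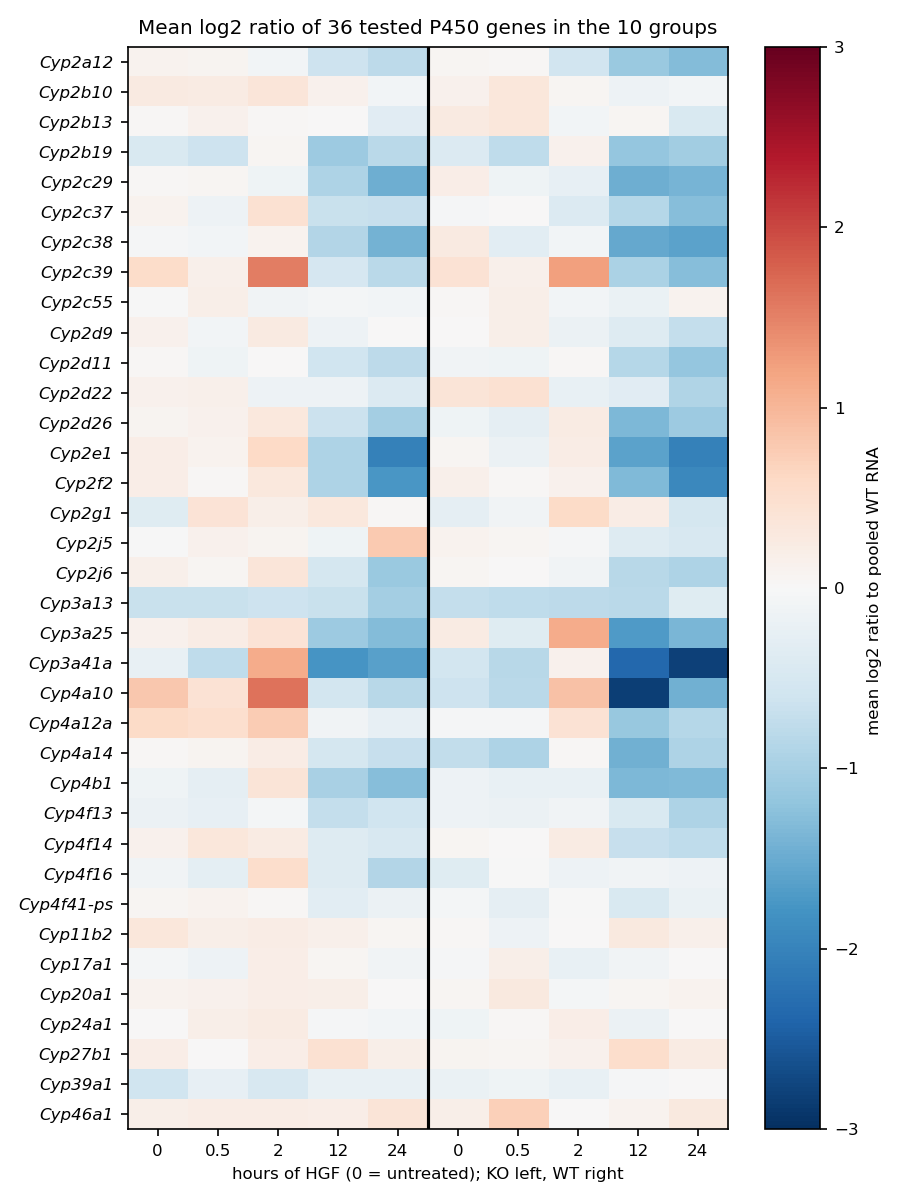
Mean log2 ratio to pooled WT RNA (colour) of the 36 tested P450 genes (rows) in the 10 groups, with hours of HGF along the bottom and KO groups left of WT groups. The 12 and 24 h columns are blue for most of the Cyp2c, Cyp2d, Cyp2e, Cyp2f, Cyp3a and Cyp4 rows in both genotypes, and the family 11 to 46 rows at the bottom stay paler.

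Although no KO member was called at 12 h, 18 of 36 had an unadjusted p under 0.05, as did 8.37% of all probes. In 24 of 36 all 3 KO cultures at 12 h lay below all 3 untreated ones, against 8.63% of probes. Weighting each group by its own spread called 7 members at that time (1.04% of probes). At 24 h in KO cells the same separation held for 16 members, against 9.97% of probes. In WT cells it held for 19 members at each time, against 11.2% of probes at 12 h and 9.6% at 24 h. Within array set C alone, where each untreated and 24 h group keeps 2 cultures (WT 24 h replicate 2 among them, although its Cy3 array lies in set B), 0 members were called at 12 h and 14 at 24 h in KO cells (0.0137 and 2.81% of probes). In WT cells 7 were called at 12 h and 14 at 24 h within that set (1.76 and 6.15% of probes). Without WT untreated replicate 3, 6 members were called lower in WT cells at 12 h and 13 at 24 h. With the sign of its Cy5 array turned, 14 members were lower and 1 higher at 12 h, and 17 lower at 24 h. The KO count at 24 h was 5 without KO untreated replicate 3 and 19 without KO 24 h replicate 3. For fits that leave out a culture or turn an array, the share of all probes called is not given here. Their counts therefore do not tell a change in the members from a change over the whole array.

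Cyp2e1 (chr7:140763819-140774990), which oxidises ethanol, acetone and small solvents, fell in both genotypes. In KO cells Cyp2e1 had log2 ratios of -2.36, -2.09 and -1.60 at 24 h, against -0.026, -0.066 and 0.68 untreated. Cyp2e1 in WT cells had -2.40, -1.56 and -2.12 at 24 h, against -0.40, -0.065 and 0.68 untreated. Differences here and below carry their SE from the fit, with 3 cultures a group unless stated. The cultures at 24 h lay below every untreated one in both genotypes, and WT 24 h replicate 2 and KO 24 h replicate 3 were the least reduced. Cyp2e1 fell by 2.21 ± 0.24 on the log2 scale in KO cells (4.63-fold, adjusted p = 1.58e-05) and by 2.10 ± 0.24 in WT cells (4.28-fold, adjusted p = 2.3e-06). At 12 h the KO cultures had -0.86, -0.90 and -1.02 and the WT cultures -1.63, -1.73 and -1.49. All 3 KO cultures stood above all 3 WT cultures at that time, but the difference (0.68 ± 0.24) was not called (adjusted p = 0.143). Against untreated, the 12 h change was -1.13 ± 0.24 in KO cells (adjusted p = 0.051) and -1.69 ± 0.24 in WT cells (adjusted p = 0.000188). Within array set C the 24 h change was -2.18 ± 0.23 in KO and -1.75 ± 0.23 in WT cells.

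Cyp2f2 (chr7:27119955-27133660), known for oxidising naphthalene in mouse liver and lung, also fell in both genotypes. In KO cells Cyp2f2 had log2 ratios of -2.32, -2.09 and -0.85 at 24 h, against 0.068, 0.10 and 0.44 untreated. Cyp2f2 in WT cells had -2.32, -2.00 and -1.50 at 24 h, against -0.25, -0.034 and 0.70 untreated. KO replicate 3 was the least reduced of the KO cultures, and no 24 h culture overlapped the untreated ones. The 24 h change was -1.96 ± 0.27 in KO cells (adjusted p = 0.000249) and -2.08 ± 0.27 in WT cells (adjusted p = 1.56e-05). At 12 h the levels were -0.83, -1.10 and -0.83 in KO cells and -1.30, -1.44 and -1.20 in WT cells, again with every KO culture above every WT culture. The change at 12 h was -1.12 ± 0.27 in KO cells (adjusted p = 0.0973) and -1.46 ± 0.27 in WT cells (adjusted p = 0.00275). The WT calls of Cyp2e1 and Cyp2f2 at 12 and 24 h held in all 14 alternative settings run and in all 6 fits that leave out 1 culture. Their KO calls at 24 h were lost where only the groups compared were fitted.

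**Figure D2:**
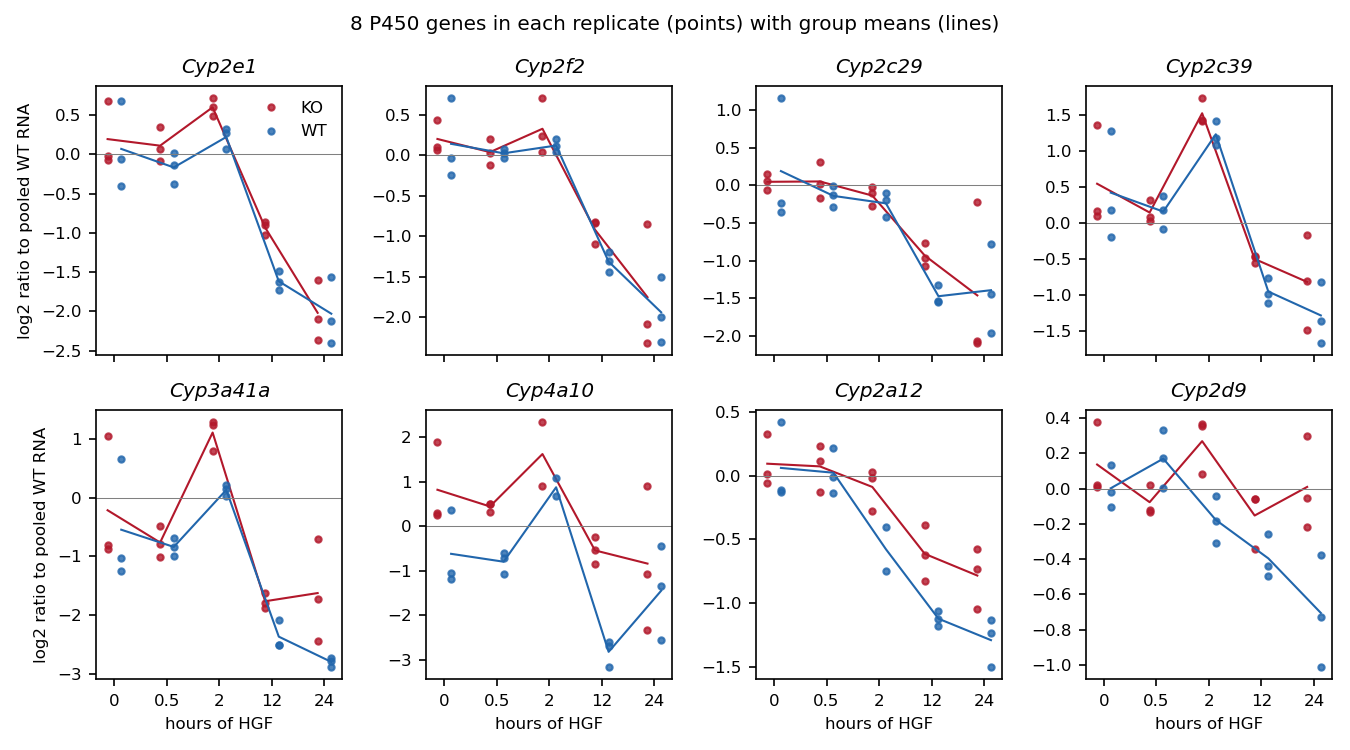
Log2 ratio to pooled WT RNA of 8 P450 genes against hours of HGF (0, untreated), at equally spaced positions, with points for the cultures of a group and lines for group means, KO in red and WT in blue. Cyp2e1 and Cyp2f2 drop at 12 and 24 h in both genotypes, and the 3 WT cultures of Cyp4a10 at 12 h (-3.16 to -2.61) lie well below the 3 KO cultures (-0.85 to -0.25).

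The Cyp2c genes, a chromosome 19 cluster whose products epoxidise arachidonic acid and oxidise drugs, were the most numerous subfamily tested. Of 5 tested Cyp2c genes, 2 were lower at 24 h in KO cells, and 3 at 12 h and 4 at 24 h in WT cells. In KO cells Cyp2c29 had log2 ratios of -2.10, -2.06 and -0.23 at 24 h, against 0.055, -0.066 and 0.15 untreated. Cyp2c29 in WT cells had -1.96, -1.45 and -0.78 at 24 h, against -0.35, -0.24 and 1.16 untreated. KO replicate 3 at -0.23 stood far above the other KO cultures, and WT untreated replicate 3 at 1.16 far above the other untreated cultures. Cyp2c29 (chr19:39287044-39330713) fell by 1.51 ± 0.37 in KO cells (adjusted p = 0.0219) and by 1.58 ± 0.37 in WT cells (adjusted p = 0.00647). Within array set C, without either of those cultures, the change was -2.07 ± 0.17 in KO cells (adjusted p = 0.000433) and -1.41 ± 0.17 in WT cells (adjusted p = 0.00129). Without untreated replicate 3, the WT call was lost at 12 h (adjusted p = 0.0845) and at 24 h (adjusted p = 0.0546), and at 24 h also without WT 24 h replicate 1. The KO call held in 1 of 6 fits without 1 culture, the one without KO 24 h replicate 3.

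Cyp2c39, whose product hydroxylates retinoic acid in mouse liver, had -1.49, -0.80 and -0.16 at 24 h in KO cells, against 0.10, 0.17 and 1.37 in untreated KO cells. In WT cells it had -1.67, -0.82 and -1.36 at 24 h, against -0.19, 0.18 and 1.28 untreated. Replicate 3 was the highest untreated culture in both genotypes, and the groups did not overlap. The 24 h change was -1.37 ± 0.33 in KO cells (adjusted p = 0.0212) and -1.71 ± 0.33 in WT cells (adjusted p = 0.00131). The KO call was lost without KO untreated replicate 3 or KO 24 h replicate 1. In WT cells at 12 h the change was -1.37 ± 0.33 (adjusted p = 0.0146), a call lost without WT untreated replicate 3 or WT 12 h replicate 1 or 2. Cyp2c39 was also the member with the highest WT mean at 2 h, 1.53 ± 0.18 in KO and 1.24 ± 0.17 in WT cells (SD, n = 3 each), and neither 2 h change was called (adjusted p = 0.761 and 0.284).

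Cyp2c38 changed by -1.38 ± 0.51 at 24 h in KO cells (adjusted p = 0.156) and fell by 1.87 ± 0.51 in WT cells (adjusted p = 0.0225). Its WT untreated cultures were widely spread, at -0.48, -0.39 and 1.69, and without that replicate 3 or WT 24 h replicate 1 the WT call was lost. At 24 h Cyp2c38 was called in both genotypes within array set C, at -2.07 ± 0.41 in KO (adjusted p = 0.0264) and -1.66 ± 0.41 in WT cells (adjusted p = 0.0386). Cyp2c37 fell by 1.23 ± 0.27 in WT cells at 24 h (adjusted p = 0.00459), and its KO change was -0.80 ± 0.27 (adjusted p = 0.112). Cyp2c55 was not called at any time, with 24 h changes of -0.069 ± 0.12 in KO and 0.055 ± 0.12 in WT cells. Cyp2c, Cyp2d, Cyp3a and Cyp4a genes are close copies of one another, and the sources used here do not say how far their probes also bind neighbours, so each value may mix several genes.

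The Cyp2d genes of mouse chromosome 15 are homologues of the human debrisoquine hydroxylase. Of 4 tested, 0 were called at 12 h and 2 at 24 h in KO cells, and 3 at 12 h and 4 at 24 h in WT cells, each lower. Cyp2d26 had -1.63, -0.74 and -0.71 at 24 h in KO cells, against 0.073, 0.089 and 0.072 untreated. The untreated KO cultures were nearly equal, and the 24 h cultures all lay below them (-1.10 ± 0.21, adjusted p = 0.00382). In WT cells Cyp2d26 had -1.38, -1.10 and -0.80 at 24 h, against -0.45, -0.23 and 0.32 untreated (-0.97 ± 0.21, adjusted p = 0.00379). Cyp2d11 fell by 0.84 ± 0.19 in KO cells (adjusted p = 0.0157) and by 1.07 ± 0.19 in WT cells (adjusted p = 0.000596). Without KO untreated replicate 1 or 3, or KO 24 h replicate 1, the KO call of Cyp2d11 was lost.

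Cyp2d22 and Cyp2d9 passed the test in WT cells and missed it in KO cells. Cyp2d22 had -0.47, -0.50 and -0.24 at 24 h in KO cells, against 0.12, 0.24 and 0.0075 untreated, and -0.58, -0.84 and -1.29 in WT cells, against 0.18, 0.76 and 0.24 untreated. All 24 h cultures lay below the untreated ones in both genotypes. The change was -0.53 ± 0.17 in KO cells (adjusted p = 0.0796) and -1.29 ± 0.17 in WT cells (adjusted p = 1.16e-05). The difference between these responses, 0.77 ± 0.23, was not called (adjusted p = 0.153). Cyp2d9, known in mouse as a male-specific steroid hydroxylase, had -0.22, 0.30 and -0.052 at 24 h in KO cells and -0.38, -0.73 and -1.01 in WT cells. Every KO culture stood above every WT culture. This was the sole member called between genotypes at 24 h (0.71 ± 0.15, adjusted p = 0.00598), where 4.77% of probes were called, and within array set C, where 3.28% were called, it was not (0.59 ± 0.19, adjusted p = 0.123). Without KO 24 h replicate 1 the fit called 7 members between genotypes at that time, and its share of all probes is not given here. Against untreated, Cyp2d9 changed by -0.13 ± 0.15 in KO cells and fell by 0.71 ± 0.15 in WT cells (adjusted p = 0.00416), and the difference of 0.58 ± 0.22 was not called (adjusted p = 0.268).

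Cyp2a12 is a bile acid and testosterone hydroxylase of mouse liver. In KO cells Cyp2a12 had log2 ratios of -1.05, -0.73 and -0.57 at 24 h, against -0.059, 0.011 and 0.33 untreated. Cyp2a12 in WT cells had -1.50, -1.24 and -1.14 at 24 h, against -0.12, -0.11 and 0.42 untreated. No 24 h culture overlapped the untreated ones, and the 3 KO cultures at 24 h all stood above the 3 WT cultures. The change was -0.88 ± 0.17 in KO cells (adjusted p = 0.00451) and -1.35 ± 0.17 in WT cells (adjusted p = 1.04e-05). At 12 h it was -0.71 ± 0.17 in KO cells (adjusted p = 0.0895) and -1.18 ± 0.17 in WT cells (adjusted p = 0.00023). KO minus WT was 0.51 ± 0.17 at 12 h (adjusted p = 0.12) and 0.51 ± 0.17 at 24 h (adjusted p = 0.0865), neither called. The dyes differed for Cyp2a12 at 24 h: KO minus WT was 1.37 on Cy5 arrays and -0.36 on Cy3 arrays, and the change in WT cells was -2.29 on Cy5 and -0.41 on Cy3. Of the Cyp2b genes, the usual targets of the receptor CAR, Cyp2b13 alone was called. It fell by 0.72 ± 0.17 in WT cells at 24 h (adjusted p = 0.0101), and without WT untreated replicate 1 that call was lost. Cyp2b10, the phenobarbital-induced form, changed by -0.34 ± 0.17 in KO and -0.21 ± 0.16 in WT cells at 24 h, and neither passed the test.

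The Cyp3a genes of chromosome 5 encode major steroid and drug hydroxylases. In the fit of all groups none of 3 tested was called in KO cells, and 2 were lower in WT cells at both times. Within array set C, Cyp3a25 and Cyp3a41a were called lower in KO cells at 24 h. In KO cells Cyp3a41a had log2 ratios of -2.44, -1.73 and -0.70 at 24 h, against -0.87, -0.81 and 1.05 untreated. Cyp3a41a in WT cells had -2.73, -2.78 and -2.88 at 24 h, against -1.25, -1.03 and 0.66 untreated. Untreated replicate 3 was the highest in both genotypes. The WT cultures at 24 h lay close together and below every untreated and 12 h WT culture, and KO replicate 3 overlapped the untreated KO cultures. Cyp3a41a (chr5:145694049-145720136) fell by 2.25 ± 0.43 in WT cells (4.77-fold, adjusted p = 0.0012), the largest change of any tested member in either genotype at 24 h. Its KO change was -1.41 ± 0.43 (adjusted p = 0.0716), and within array set C -1.25 ± 0.22 (adjusted p = 0.0174). Without WT untreated replicate 3, the Cyp3a41a change in WT cells was -1.22 at 12 h (adjusted p = 0.12) and -1.65 at 24 h (adjusted p = 0.0122), against -1.82 ± 0.43 (adjusted p = 0.0135) at 12 h with it. The 12 h call was also lost without WT 12 h replicate 1 or 2.

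Cyp3a25 was lower in WT cells at 12 h (-1.93 ± 0.45, adjusted p = 0.0137) and at 24 h (-1.61 ± 0.45, adjusted p = 0.0259). The 24 h WT cultures, -2.07, -1.67 and -0.38, overlapped the untreated ones, -0.38, -0.011 and 1.10, and without untreated replicate 3 both calls were lost. The 12 h call was also lost without WT 12 h replicate 2, and the 24 h call without WT 24 h replicate 1 or 2. The Cyp3a25 changes in KO cells, set against 2 untreated cultures, were -1.20 ± 0.50 at 12 h and -1.44 ± 0.50 at 24 h (adjusted p = 0.47 and 0.125). Within array set C the 24 h change of Cyp3a25 was -2.11 ± 0.25 in KO cells (adjusted p = 0.00265) and -1.67 ± 0.25 in WT cells (adjusted p = 0.00389). Cyp3a13 changed by -0.36 ± 0.18 in KO and 0.34 ± 0.20 in WT cells at 24 h, on opposite sides of 0, and neither was called. Cyp3a16 failed the filter on missing values, and its cultures had -3.04, -2.88 and -0.76 at 24 h in KO cells, against -0.999, -1.05 and 0.0045 untreated, and -3.39, -1.99 and -2.16 at 24 h in WT cells.

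The Cyp4a genes of chromosome 4 hydroxylate fatty acids at the omega end and are classical targets of PPAR alpha. In KO cells Cyp4a10 had log2 ratios of -0.25, -0.85 and -0.53 at 12 h, against 0.30, 0.26 and 1.89 untreated. Cyp4a10 in WT cells had -2.70, -3.16 and -2.61 at 12 h, against -1.18, -1.05 and 0.37 untreated. The 3 KO cultures at 12 h all lay far above the 3 WT cultures, and WT untreated replicate 3 stood above the other WT untreated cultures. Cyp4a10 (chr4:115518287-115533649) was higher in KO than in WT cells at 12 h by 2.28 ± 0.61 (4.86-fold, adjusted p = 0.0437). Against untreated it fell by 2.20 ± 0.61 in WT cells (adjusted p = 0.0343) and changed by -1.36 ± 0.61 in KO cells (adjusted p = 0.532). The difference of the responses, 0.84 ± 0.86, was not called (adjusted p = 0.97). At 24 h Cyp4a10 had -2.34, -1.07 and 0.90 in KO cells and -2.56, -1.34 and -0.45 in WT cells, with the groups overlapping. The WT call at 12 h held in 1 of 6 fits without 1 culture, the one without WT untreated replicate 1. The WT change at 24 h was -0.83 ± 0.61 (adjusted p = 0.485).

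Cyp4a12a, the male form, had -0.054, -0.23 and -0.042 at 12 h in KO cells and -1.25, -1.16 and -0.97 in WT cells. The groups were far apart relative to their spread, and KO exceeded WT by 1.02 ± 0.27 (adjusted p = 0.0403). Cyp4a10 and Cyp4a12a were the sole members called between genotypes at 12 h, where 2.84% of probes were called, and both were called within array set C as well, where 3.27% of probes were (adjusted p = 0.00453 and 0.00686). Leaving out any 1 of the 6 cultures at 12 h ended the call of Cyp4a12a, and likewise that of Cyp4a10. Against untreated, Cyp4a12a fell in WT cells at 12 h (-1.10 ± 0.27, adjusted p = 0.018), a call lost without WT untreated replicate 3 or WT 12 h replicate 1 or 2. Cyp4a14 was not called against untreated in either genotype, with 12 h changes of -0.58 ± 0.31 in KO and -0.70 ± 0.31 in WT cells. All 3 KO cultures of Cyp4a14 stood above all 3 WT cultures at 12 h (0.91 ± 0.31, adjusted p = 0.129).

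Cyp4b1, which in rodents oxidises furans and fatty acids, had -1.84, -1.44 and -0.56 at 24 h in KO cells, against -0.34, -0.27 and 0.21 untreated. In WT cells it had -1.76, -1.02 and -1.19 at 24 h, against -0.53, -0.11 and 0.18 untreated. The groups did not overlap in either genotype, and the change was -1.15 ± 0.23 in KO (adjusted p = 0.00655) and -1.17 ± 0.23 in WT cells (adjusted p = 0.00187). Of 4 tested members of Cyp4f, a subfamily of leukotriene and fatty acid hydroxylases, 2 were called, both in WT cells. Cyp4f14 fell by 0.81 ± 0.21 at 24 h (adjusted p = 0.0137), a call lost without WT untreated replicate 3 or WT 24 h replicate 1. Cyp4f13 fell by 0.77 ± 0.18 (adjusted p = 0.00796). Their KO changes at 24 h were -0.62 ± 0.21 for Cyp4f14 and -0.44 ± 0.18 for Cyp4f13, and neither was called. Cyp4f16 changed by -0.77 ± 0.23 in KO cells (adjusted p = 0.0662) and 0.22 ± 0.23 in WT cells.

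The epoxygenase subfamily Cyp2j had no call, and 1 KO culture stood apart. Cyp2j6, measured on all 60 arrays, had -0.70, -2.78 and 0.14 at 24 h in KO cells, against -0.028, -0.15 and 0.66 untreated. Replicate 2 stood far below the other KO cultures, and the change of -1.27 ± 0.41 (adjusted p = 0.0889) became -0.44 without it. Cyp2j5 had -0.41, 2.87 and -0.12 in the same KO cultures, so the same replicate 2 was the highest there. Its KO change of 0.80 ± 0.49 turned to -0.25 without replicate 2, and the change was 1.98 on Cy3 arrays and -0.38 on Cy5 arrays. In WT cells Cyp2j6 had -1.18, -0.75 and -0.88 at 24 h, against -0.30, 0.029 and 0.47 untreated, without overlap but not called (adjusted p = 0.146), and Cyp2j5 changed by -0.59 ± 0.49.

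Cyp20a1, an orphan form, changed by -0.095 ± 0.14 in KO and 0.052 ± 0.14 in WT cells at 24 h. Cyp24a1, which inactivates vitamin D, changed by -0.10 ± 0.19 and 0.13 ± 0.19, and Cyp27b1, which activates vitamin D, by -0.028 ± 0.13 and 0.15 ± 0.13, in KO and WT cells. Cyp17a1, a steroid lyase, changed by -0.047 ± 0.16 and 0.056 ± 0.16, and Cyp11b2, the adrenal aldosterone synthase, by -0.28 ± 0.11 and 0.12 ± 0.13. Cyp46a1, a brain cholesterol hydroxylase, changed by 0.22 ± 0.16 and 0.14 ± 0.16, and the olfactory form Cyp2g1 by 0.40 ± 0.27 and -0.27 ± 0.27. In the fit of all groups none of these was called in any of the 18 comparisons, and a miss of the threshold does not show that their levels are equal. These ratios do not tell whether such tissue-restricted transcripts were present in hepatocytes or the probes gave background.

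The 13 members left untested for missing values had values in 12 to 28 of 30 cultures. They were Cyp1a1, Cyp1a2, Cyp1b1, Cyp2b9, Cyp2c40, Cyp2j9, Cyp3a16, Cyp3a44, Cyp4f15, Cyp4f18, Cyp11a1, Cyp21a1 and Cyp26a1. Cyp1a2, the main hepatic Ah receptor target, had -0.38, -0.34 and -0.49 at 12 h in KO cells and -1.33, -1.41 and -1.16 in WT cells. The KO cultures all stood above the WT cultures. At 24 h Cyp1a2 had -1.43, -1.17 and 0.053 in KO cells and -2.00, -1.14 and -0.72 in WT cells, which overlapped. Cyp1a1, its inducible neighbour, had 24 h means of 0.0037 ± 0.23 in KO and 0.17 ± 0.31 in WT cells (SD, n = 3 each). Cyp1b1 had -0.56 ± 0.32 in KO and -0.70 ± 0.55 in WT cells (SD, n = 3 each). Cyp26a1, the retinoic acid hydroxylase, was read in 12 cultures only.

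**Figure D3:**
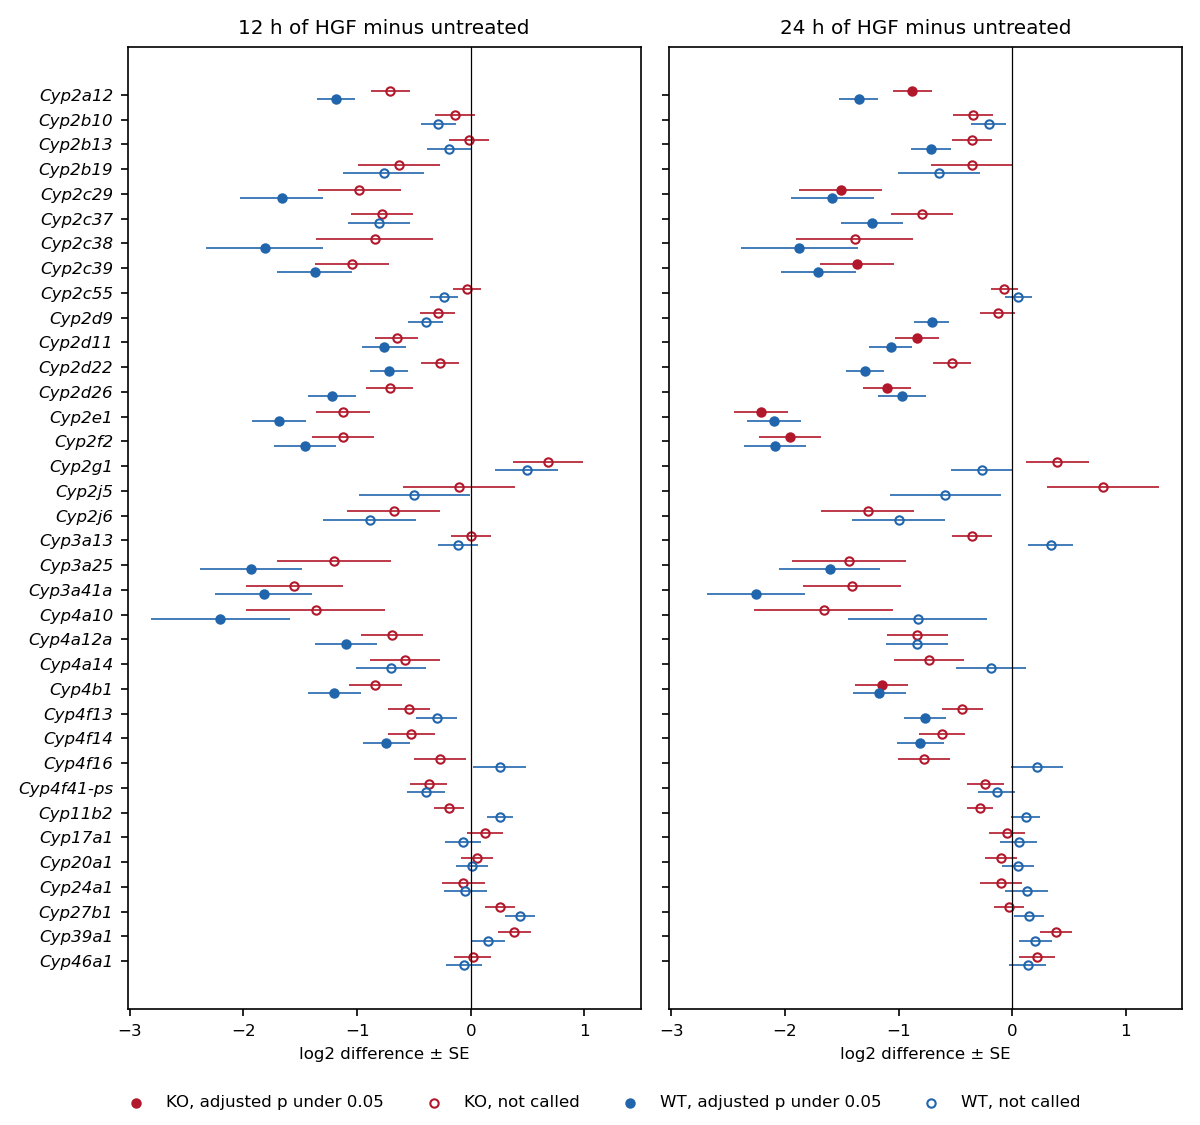
Log2 difference from untreated (± SE) of the 36 tested P450 genes after 12 h (left panel) and 24 h (right panel) of HGF, KO in red above WT in blue for each gene, filled where the adjusted p is under 0.05. No KO point is filled at 12 h, 8 are at 24 h, and WT has 15 and 17 filled points, all left of 0.

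Whether the response differed between genotypes was tested directly, as the change in KO cells minus that in WT cells. Strain changed with genotype, so this contrast cannot set loss of Met apart from strain. No member was called at 0.5, 2, 12 or 24 h, where 0.00686, 0.0274, 0.0754 and 0.727% of all probes were. By unadjusted p under 0.05, 1, 0, 1 and 5 members passed at these times, as did 8.77, 4.68, 6.07 and 12.2% of all probes. At 12 h the difference was above 0 in 31 of 36 members, with a median of 0.20 against -0.0092 over all probes, and at 24 h in 21 of 36, with a median of 0.077. The dyes gave different 12 h values: on Cy5 arrays alone the median was -0.028 with 18 of 36 members below 0, and on Cy3 arrays alone 0.57 with 5 below 0. Without WT untreated replicate 3 the 24 h median was -0.10, and within array set C it was -0.16. All 8 members called in KO cells at 24 h were among the 17 called in WT cells (100 and 47.1% of each list). Neither this overlap nor the counts compare the size of the responses. For Cyp2e1 the difference was 0.56 ± 0.34 at 12 h and -0.11 ± 0.34 at 24 h, and for Cyp2f2 0.34 ± 0.39 and 0.13 ± 0.39.

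Averaged over the 5 times, 7 of 36 members differed between genotypes, 6 higher and 1 lower in KO cells, where 10.1% of all probes were called, 5.01% as higher and 5.1% as lower. All 3 Cyp4a genes were among them. Cyp4a10 was higher by 1.26 ± 0.29 (2.4-fold, adjusted p = 0.00509), Cyp4a14 by 0.63 ± 0.14 (adjusted p = 0.00345) and Cyp4a12a by 0.62 ± 0.12 (adjusted p = 0.00124). The calls of all 3 held in each of the 30 fits that leave out 1 culture. On Cy3 arrays alone Cyp4a10 was the sole member called, where 4.62% of probes were called. Before HGF no member passed the test, and 0.0617% of probes did, whereas 5 members and 5.22% of probes had an unadjusted p under 0.05. Untreated Cyp4a12a had 0.51, 0.45 and 0.79 in KO cells and -0.37, -0.08 and 0.37 in WT cells (0.61 ± 0.27, adjusted p = 0.896). Untreated Cyp4a14 had 0.0085, -0.076 and 0.20 in KO cells and -1.31, -0.70 and -0.22 in WT cells (0.79 ± 0.31, adjusted p = 0.835). In both genes all KO cultures stood above all WT cultures.

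Cyp3a41a was higher in KO cells by 0.63 ± 0.19 (adjusted p = 0.0359), and 13 of the 30 fits without 1 culture lost the call. Cyp2a12 was higher by 0.32 ± 0.077 (adjusted p = 0.00847) and Cyp2d9 by 0.26 ± 0.069 (adjusted p = 0.0163). Cyp39a1, an oxysterol hydroxylase, was the sole member lower in KO cells (-0.24 ± 0.066, adjusted p = 0.023), and without KO 2 h replicate 1 it was not called. Its untreated cultures had -0.52, -0.48 and -0.79 in KO cells, all below those of WT cells, -0.062, -0.17 and -0.37. All KO cultures stood above all WT cultures in 4 members untreated and in 9, 14, 15 and 5 members at 0.5, 2, 12 and 24 h. The shares of probes that did so were 5.14% untreated and 15.8, 15.9, 13.7 and 8.55% at these times. The reverse, all KO cultures below all WT cultures, held in 1 member untreated and in 6, 1, 0 and 2 members at these times. The share of probes for the reverse is not given here. Of 36 members, 29 had an averaged difference above 0, with a median of 0.14 against -0.0044 over all probes. The strain labels differ with genotype, so none of these differences can be set apart from strain.

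**Figure D4:**
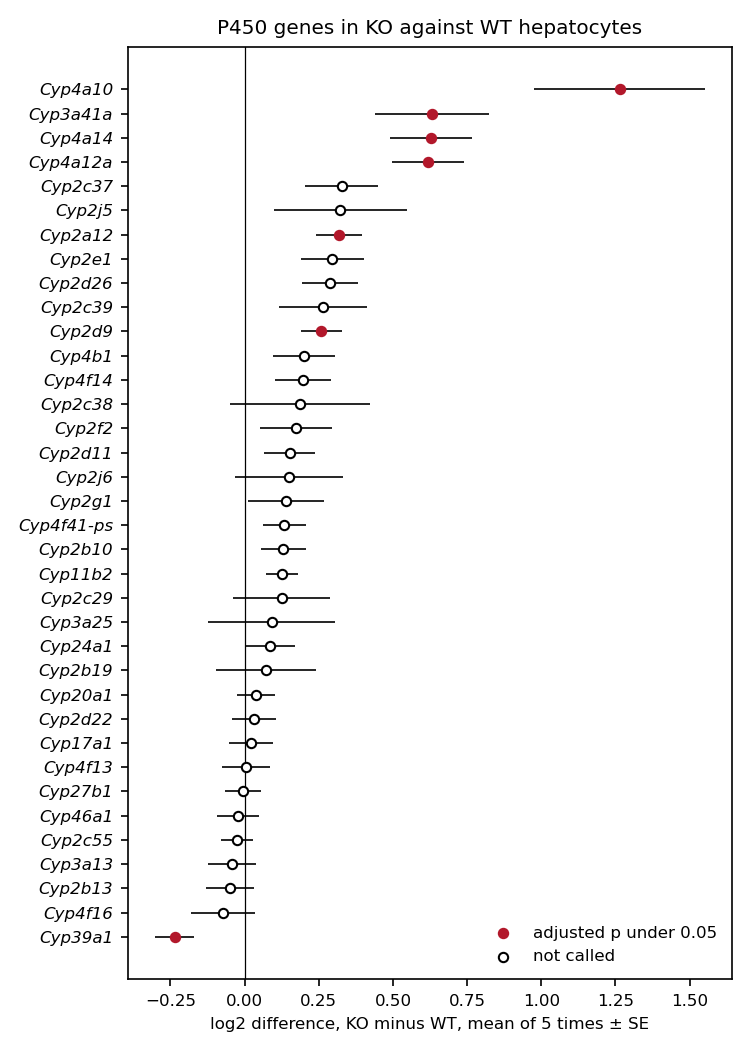
Log2 difference KO minus WT averaged over the 5 times (± SE) for the 36 tested P450 genes, ordered by size and filled where the adjusted p is under 0.05. Cyp4a10 lies farthest right at 1.26, followed by Cyp3a41a, Cyp4a14 and Cyp4a12a at 0.62 to 0.63, and Cyp39a1 is the sole filled point left of 0.

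At 0.5 and 2 h no member was called against untreated in either genotype, where 0.00686% (0.5 h) and 0.0343% (2 h) of probes were called in KO cells, and 0.123 and 0.446% in WT cells. An unadjusted p under 0.05 was seen in 2 and 4 members in KO cells (4.43 and 5.92% of probes), and in 1 and 6 members in WT cells (14.8 and 12.5% of probes). The largest 2 h changes were positive. Cyp3a41a changed by 1.32 ± 0.43 in KO cells (adjusted p = 0.732) and Cyp4a10 by 1.496 ± 0.68 in WT cells (adjusted p = 0.371), the last from 2 WT cultures at 2 h. Between genotypes no member was called at 0.5 or 2 h in the fit of all groups, where 4.3 and 0.432% of probes were, and 5 and 7 members had an unadjusted p under 0.05 (20.6 and 8.61% of probes). Within array set D alone 7 members were called at 0.5 h (21% of probes) and 4 at 2 h (2.17%), with Cyp4a10, Cyp4a12a and Cyp4a14 among those higher in KO cells at 0.5 h. Cyp4a14 then differed by 0.996 ± 0.19 (adjusted p = 0.00234).

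Agreement between the dyes was closer for P450 genes than for most probes. The correlation between a gene's Cy5 and Cy3 values over cultures had a median of 0.39 in the 36 tested members and -0.039 in all tested probes. It exceeded 0.5 in 13 members, against 6.15% of probes, and was below 0 in 7. These correlations take in all groups and so include the members' own changes. At 24 h of HGF 27 of 36 members in KO cells and 23 of 36 in WT cells were below 0 on both dyes, against 29.5 and 26.9% of probes. Each of the 50 calls given here had the same sign on both dyes, but calls were made on the mean of both, which favours this. At 24 h Cy5 arrays alone kept 4 of 8 KO and 15 of 17 WT calls, and Cy3 arrays alone 2 and 7. Cy5 arrays alone called 0.933% of all probes in KO and 7.76% in WT cells, and Cy3 arrays alone 1.5 and 4.39%.

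**Figure D5:**
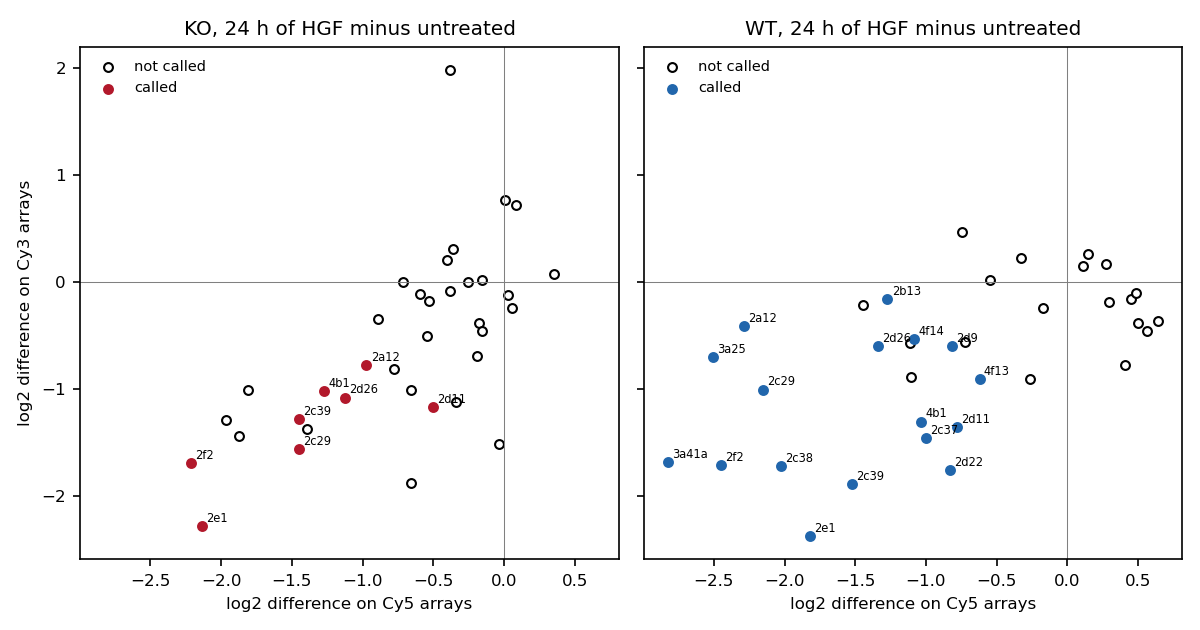
Log2 difference between 24 h of HGF and untreated for the 36 tested P450 genes on Cy3 arrays (vertical) against Cy5 arrays (horizontal), KO in the left panel and WT in the right, with called genes filled and labelled without the Cyp prefix. All filled points lie below 0 on both axes, and the open KO point at 1.98 on the vertical axis is Cyp2j5.

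Genes that serve P450 enzymes were read from the same fits. Of 15 measured electron donors and haem enzymes of 20 listed, 0 were higher and 1 lower in KO cells at 24 h, and 1 higher and 4 lower in WT cells. Of all probes 3.48 and 8.72% were called in KO and WT cells at that time. Between genotypes at 24 h, 3 were higher and 1 lower in KO cells, where 4.77% of all probes were called. Cytochrome b5, Cyb5a, which passes electrons to many P450 enzymes, fell in WT cells at 24 h (-0.66 ± 0.20, adjusted p = 0.0407) and was higher in KO than in WT cells at 12 h (0.99 ± 0.20, adjusted p = 0.00504) and 24 h (1.48 ± 0.20, adjusted p = 4.46e-05). Pgrmc1, a haem-binding partner of P450 enzymes, fell in WT cells at 24 h (-1.25 ± 0.24, adjusted p = 0.0016) and was then higher in KO cells (1.05 ± 0.24, adjusted p = 0.0115). Fech, which inserts iron into haem, and Blvrb, a biliverdin reductase, also fell in WT cells at 24 h, by 0.51 and 1.06, and Hmox1, the inducible haem oxygenase, rose by 0.58. Fech was higher in KO than in WT cells at 24 h (0.67 ± 0.16, adjusted p = 0.0129), and Hmox2, the constitutive haem oxygenase, was lower (-0.50 ± 0.14, adjusted p = 0.0425). Fdx1, a mitochondrial electron donor, fell in KO cells at 24 h (-0.44 ± 0.12, adjusted p = 0.0467). The reductase gene Por was not among the tested probes.

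Of 12 measured receptors and transcription factors of 22 listed, none was called against untreated at 12 h, and 1 in WT cells at 24 h. Of all probes 0.13% in KO and 5.81% in WT cells were called at 12 h, and 3.48 and 8.72% at 24 h. Cebpa, a main activator of liver genes, fell in WT cells at 24 h by 1.04 (adjusted p = 0.000592) and was then higher in KO than in WT cells (0.81 ± 0.18, adjusted p = 0.00861). Nfe2l2, the oxidative stress factor, was higher in KO than in WT cells at 12 h (0.81 ± 0.18, adjusted p = 0.0122) and 24 h (1.15 ± 0.18, adjusted p = 0.000247). Hnf4a changed by -0.31 ± 0.15 in KO and -0.23 ± 0.15 in WT cells at 24 h, and Nr1i2, the pregnane X receptor, by -0.62 ± 0.29 and -0.015 ± 0.29, with none called. The genes of CAR, the Ah receptor and PPAR alpha were not among the tested probes.

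Of 11 hepatocyte markers measured, 5 were lower at 24 h in KO cells (Apoa1, Asgr1, Cps1, Serpina1a and Ttr), where 2.94% of probes were lower. In WT cells 4 markers were lower (all of these but Cps1), where 4.76% of probes were. No marker was higher, and the others, albumin among them, were not called. Asgr1, the asialoglycoprotein receptor, fell by 1.31 in KO and 2.28 in WT cells. The mean level of the 11 hepatocyte markers in KO cells ranged from -0.80 to -0.12 at 24 h, against -0.086 to 0.14 untreated. That mean in WT cells ranged from -0.91 to -0.70 at 24 h, against -0.19 to 0.074 untreated. Markers of other liver cells did not rise at 24 h, apart from the bile duct keratin Krt7 in WT cells (0.61 ± 0.12). Of 6 measured Kupffer cell markers, 1 was lower in KO and 2 in WT cells, and of 4 endothelial and 5 stellate markers 1 each in both genotypes. Of 6 bile duct markers, 2 were lower in WT cells (Cftr and Krt23), of 2 red blood cell markers 1 was lower in WT cells (Alas2), and of 2 lymphocyte markers none was called. The mean level of the 6 Kupffer cell markers ranged from -0.58 to -0.093 at 24 h, against 0.012 to 0.028 untreated, in KO cells. In WT cells it ranged from -0.60 to -0.48 at 24 h, against -0.12 to 0.076 untreated. The part of changes in cell makeup in the P450 results was not tested. These lists were chosen with earlier results of the same data known.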

How the data were processed

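The deposited values were log2 ratios, 1 per probe and array, that the authors had normalized before deposit. The method, log base and direction are not given in the sources used here, and log2 of sample over pool was taken as most likely. The labels conflict on the 12 h treatment time and the HGF dose unit, and the sample titles and ng/ml were used. Arrays were centred on their median, and both dye orientations of a culture were averaged. Probes with such values in at least 2 of 3 cultures of all 10 groups were kept, 14580 of 21997 (66.3%), with 6.01% of all values missing. limma 3.58.1 in R 4.3.3 (lmFit, contrasts, eBayes) fitted all 30 cultures as 10 groups with 20 residual degrees of freedom. P-values were two-sided and Benjamini-Hochberg adjusted over all tested probes, and a call needed an adjusted p under 0.05. "Rose", "fell" and "called" refer to this rule. Where a culture had no value, the fit used the others.

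The text names each member called in at least 1 of the 18 comparisons and, for each subfamily without a call, the member with values on most arrays. Other members are named for their role or to complete a subfamily. Members and gene lists were chosen with earlier results of these data known. The fit was also run on simulated data with independent noise of equal spread in all groups. That run does not test unequal spread, array sets or disagreement of the dyes. Alternatives were other centring, scaling and probe filters, a replicate block, an array set term, weights by group, turning the sign of 1 array, each dye alone, removal of 3 dye profiles, fitting only the groups compared, averaging a gene's probes, and leaving out each culture. Analysis within an array set was added after the data were seen. The number of arrays limits the precision.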

Additional observations from a re-analysis of the deposited data

How the results depend on the processing

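Member counts under 245 fits with another setting stayed within 1.5 times the reported count in 192 and moved further in 53. None of 1146 refitted calls reversed, but the refits reuse the cultures that made the calls, which favours this. Leaving cultures out aside, the following counts moved, and the cause was not tested. KO against WT at 0.5 h gave 2 with scaling, 1 with the replicate block, 2 with the array set term, 5 with weights by group, 1 on Cy3 alone, 1 with dye profiles removed, 8 with only the groups compared and 7 within set D. At 2 h it gave 6 with scaling, 5 with weights, 1 with dye profiles removed, 4 with only the groups compared and 4 within set D. At 12 h it gave 0 with scaling and on either dye alone, 1 with either other probe filter, 6 with the array set term, 6 with weights and 5 with only the groups compared. At 24 h it gave 4 with the array set term, 2 on Cy5, 3 with dye profiles removed, and 0 with weights, on Cy3, with only the groups compared and within set C. Averaged over times, Cy3 arrays alone gave 1. KO cells at 12 h gave 5 with scaling, 1 with the stricter filter, 2 with the replicate block, 3 with the array set term, 7 with weights, 1 with the sign of 1 array turned, 1 on Cy5 and 2 with dye profiles removed. KO cells at 24 h gave 15 with the array set term, 5 on Cy5, 2 on Cy3, 0 with only the groups compared and 14 within set C. WT cells at 2 h gave 3 with scaling, 1 with the array set term, 2 with the sign turned and 1 with dye profiles removed. WT cells at 12 h gave 8 with scaling, 5 with only the groups compared and 7 within set C, and at 24 h 5 with weights, 7 on Cy3 and 3 with only the groups compared. The difference of responses at 24 h gave 1 with dye profiles removed. Fits of only the groups compared rest on fewer cultures. The share of all probes called also moved with the setting. At 24 h in WT cells it was 8.72% in the main fit and 1.46% with weights.

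Leaving out 1 culture gave 0 to 0 calls for KO against WT untreated, at 0.5 h and at 2 h, 0 to 1 at 12 h, 1 to 7 at 24 h and 6 to 9 averaged. For KO cells it gave 0 to 0 at 0.5 h, 0 to 1 at 2 h, 0 to 0 at 12 h and 5 to 19 at 24 h. For WT cells it gave 0 to 1 at 0.5 h, 0 to 2 at 2 h, 6 to 16 at 12 h and 13 to 18 at 24 h, with 6 reached without WT untreated replicate 3 or WT 12 h replicate 2. The difference of responses gave 0 to 1 at 0.5 h and 0 to 0 at the other times. Of 50 calls, 28 held in every such fit. No clear pairing by replicate number was seen, which does not settle whether cultures share mice. The 60 pairs of one number within a genotype correlated at -0.252 to 0.667, 10 of them over 0.1. Of 30 cultures, 10 correlated best with their own number. Limits of the array, such as probe specificity, signal over background and the dyes' disagreement, cannot be read from log ratios alone.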
